A study of Populus ussuriensis with 12 samples.

Results

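Late embryogenesis abundant (LEA) proteins, seed maturation proteins and other desiccation-related proteins were examined in leaves of the poplar Populus ussuriensis. The genes were chosen by their descriptions: the UniProt description of a gene, or its NR description where it had none from UniProt, had to name a LEA, dehydrin, seed maturation, desiccation-related, abscisic stress-ripening, embryonic DC-8, low-temperature-induced 65 kDa or RD22 protein. Of the 35747 genes in the table, 36 matched, 32 by UniProt and 4 by NR. No description held the word dehydrin. The protein domain column listed a dehydrin domain in 7 genes, of which 1, Potri.004G158500, is among the 36 through its description as a LEA protein. In the table's gene ontology terms, 10 of the 36 carried response to salt stress, among 580 genes with that term: the 7 RD22 genes, both LTI65 genes and 1 LEA D-29.

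LEA proteins are small and very hydrophilic in most groups, lack a fixed fold in dilute solution, and are known from the late, drying phase of seed development. Many are also made in leaves that lose water, where abscisic acid (ABA) switches on their genes through bZIP factors of the ABI5 type. They are thought to shield membranes and enzymes as water is lost. The groups differ by domain, and proteins such as LTI65, RD22 and the abscisic stress-ripening proteins belong to other families that are known for the same hormone and the same stress.

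The 12 libraries were from 4 groups of 3, all of greenhouse plants aged 70 days in soil, and RNA was taken from leaves 7 and 8 counted from the shoot tip. Wild type (WT) plants and plants overexpressing the microRNA Pu-miR172d (OE) were each either watered or left without water for 4 days. Watered replicates carry the numbers 1 to 3 and drought replicates 4 to 6. The labels give neither the promoter of the OE plants nor the number of lines, and the level of the microRNA was not analysed here. Nothing in the labels says that each library is a plant of its own, so the p-values reflect the scatter of these libraries, which may be technical.

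Library totals, worked out from the smallest steps in FPKM (fragments per kilobase of gene, scaled to library depth), ranged from 9682111 to 12131416 fragments. WT drought replicate 6 had the lowest mean correlation with its own group (0.926), followed by WT drought replicate 4 (0.947) and OE watered replicate 2 (0.949). Leaf mesophyll markers (Rubisco small chain and chlorophyll a-b binding proteins, 29 genes) summed to 38435 to 47002 FPKM in watered WT, 26302 to 38103 in watered OE, 2270 to 4038 in drought WT and 198 to 1135 in drought OE leaves. Phloem markers (21 genes) summed to 68.4 to 249 FPKM in watered, 4.58 to 7.77 in drought WT and 0.987 to 1.09 in drought OE libraries. Xylem markers (3 genes) summed to 13.4 to 125 FPKM in watered libraries and to 0.167 to 0.439 in drought OE, and in drought WT to 33.4 in replicate 6 against 1.20 and 1.64 in the others. Root markers (6 genes) summed to at most 1.71 FPKM, and the guard cell channel KAT1 lay at 0.459 to 1.51 FPKM in drought WT against 4.83 to 7.66 in the other groups. In bulk leaves, fewer cells of a type and less RNA per cell cannot be told apart, and the part of these shifts in the results was not tested.

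The 36 genes took a small share of the leaf mRNA, and the share was larger under drought. Their summed level was 686 ± 26.5 FPKM in watered WT, 3177 ± 566 in drought WT, 996 ± 299 in watered OE and 2554 ± 589 in drought OE leaves (mean ± SD, n = 3). Every drought library, at 2069 FPKM or more, lay above every watered library, at 1338 FPKM or less. The most abundant genes also changed. In watered leaves RD22 proteins and abscisic stress-ripening protein 3 made up most of the sum, and under drought the LEA gene Potri.010G012100 alone held 32.5 ± 8.58% of it in WT and 40.9 ± 5.57% in OE leaves.

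**Figure D1:**
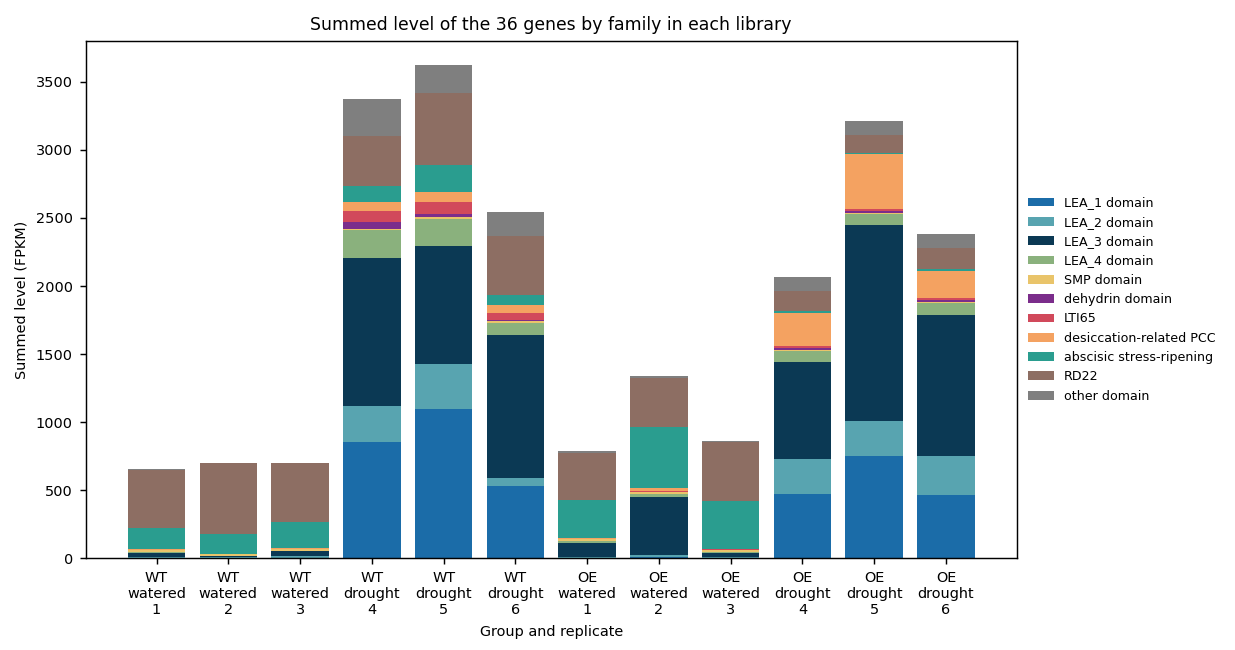
Summed FPKM of the 36 genes in each of the 12 libraries, stacked by family. The bars reach 655 to 702 FPKM in watered WT and 2540 to 3620 FPKM in drought WT leaves; OE watered replicate 2, at 1338 FPKM, is the highest watered library.

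Of the 36 genes, 23 reached 1 FPKM in at least 3 of the 12 libraries and were tested. The other 13 never exceeded 2.75 FPKM and held between 1 and 103 fragments each over all 12 libraries, so that differences between groups were mostly not detectable at this depth. They are LEA 18, 3 of the 4 LEA_2 members, 2 RD22 copies on chromosome 4, a second LEA D-34, an abscisic stress-ripening protein 1, 3 of the 4 desiccation-related PCC proteins, LEA 1 and a LEA family protein of chromosome 1. A gene is said to have risen or fallen where limma's moderated test on log2(FPKM + 1) gave a Benjamini-Hochberg adjusted p under 0.05 over all 25373 tested genes. Changes are given as log2 differences ± SE on that scale, which understates the change of weakly expressed genes. Where a group is listed at 0 in all 3 libraries the fitted difference depends on the added 1, and a lower bound of the fold is given beside it.

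In WT leaves, 17 of the 23 tested genes rose under drought and 4 fell. Among all tested genes 33.9% rose and 21.7% fell. In OE leaves, 14 rose and 6 fell, where 27.8% of all tested genes rose and 35.0% fell. The drought libraries lay wholly above the watered ones for 16 of the 23 in WT (38.5% of all tested genes) and for 15 in OE leaves (30.7%), and wholly below for 5 (24.3%) and 7 (39.3%). These genes passed the filter partly through the group where they are high. With the filter left out, so that all 36 were tested, 20 rose and 4 fell in WT (24.5% and 17.1% of 35747 genes) and 15 rose and 6 fell in OE leaves (21.8% and 27.0%). Leaving out WT drought replicate 6, 17 of the 23 rose and 3 fell in WT, and leaving out OE watered replicate 2, 14 rose and 6 fell in OE leaves. Another scaling, by the median of ratios to a mean library, moved the all-gene median of the WT response from 0.25 to 0.01 and the split of all genes from 8614 higher and 5501 lower to 5721 higher and 6896 lower. Under it the same 17 and 14 members rose. In the main fit, all of the called changes kept their direction relative to the all-gene median of each contrast. That median was smaller in size than every called change, so the direction could not turn.

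**Figure D2:**
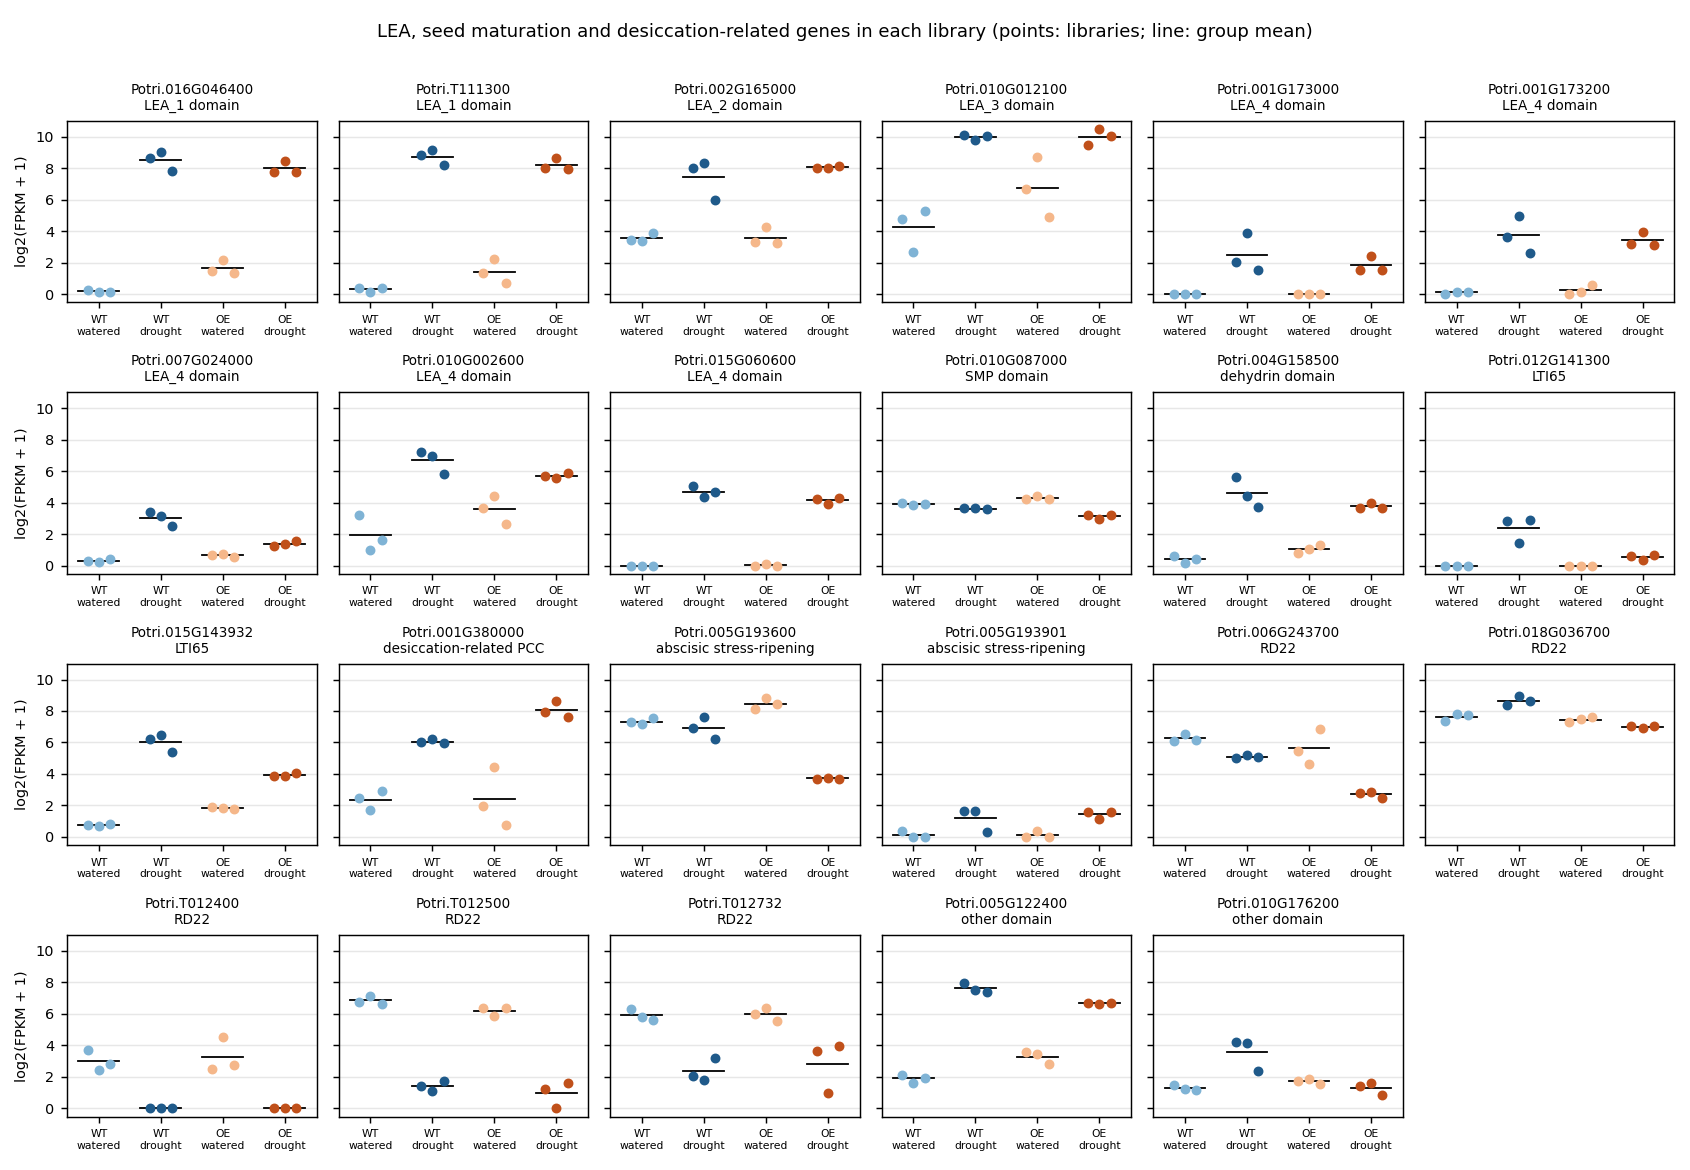
log2(FPKM + 1) of each of the 23 tested genes in every library (points, 3 per group) with the group mean (line), ordered by family. The 18 kDa seed maturation genes go from at most 0.330 FPKM in watered WT to at least 216 FPKM in all drought libraries, and 3 RD22 genes on scaffold 25 go the other way.

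The largest rises were those of the pair of LEA_1 genes described as 18 kDa seed maturation protein, a type first known from soybean seeds. Potri.016G046400 (chromosome 16, 2927266 to 2928698, plus strand) lay at 0.183, 0.0941 and 0.10 FPKM in watered WT, 399, 530 and 231 in drought WT, 1.81, 3.46 and 1.58 in watered OE and 216, 355 and 217 in drought OE leaves. Potri.T111300 (scaffold 170, 65411 to 66743, minus strand) lay at 0.303, 0.104 and 0.330 FPKM in watered WT, 457, 566 and 298 in drought WT, 1.49, 3.70 and 0.653 in watered OE and 259, 399 and 250 in drought OE leaves. For both genes every drought library lay far above every watered one, and every watered OE library lay above every watered WT library. Potri.016G046400 rose by 8.35 ± 0.31 in WT (adjusted p = 2.11e-08) and by 6.33 ± 0.31 in OE leaves (adjusted p = 3.91e-08). Potri.T111300 rose by 8.42 ± 0.35 (adjusted p = 2.63e-08) and 6.79 ± 0.35 (adjusted p = 4.98e-08). Whether similar copies such as these shared reads was not tested.

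Among the other LEA groups the LEA_3 gene was the most abundant. Potri.010G012100, described as Lea5 and named for a cotton embryo protein (chromosome 10, 1614742 to 1615572, minus strand), lay at 26.8, 5.51 and 38.2 FPKM in watered WT and at 1088, 869 and 1045 in drought WT leaves. In OE leaves it lay at 99.6, 423 and 28.8 FPKM when watered and at 714, 1437 and 1036 under drought. Drought and watered libraries did not overlap in either genotype, while the watered OE libraries spread more than 10-fold, with replicate 2 the highest. It rose by 5.70 ± 0.83 in WT (adjusted p = 0.000153) and by 3.24 ± 0.83 in OE leaves (adjusted p = 0.00478).

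The LEA_2 gene Potri.002G165000 is described as Lea14-A, an atypical LEA protein with a fixed fold (chromosome 2, 12456399 to 12457606, plus strand). It lay at 9.64, 9.55 and 13.7 FPKM in watered WT, 259, 328 and 63.4 in drought WT, 8.85, 18.2 and 8.38 in watered OE and 255, 257 and 285 in drought OE leaves. The drought libraries lay above the watered ones in both genotypes, and WT drought replicate 6 was the lowest of the 6 drought libraries. The gene rose by 3.90 ± 0.49 in WT (adjusted p = 5.68e-05) and by 4.46 ± 0.49 in OE leaves (adjusted p = 1.09e-05).

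All 5 LEA_4 genes rose in both genotypes. The LEA_4 domain is the repeat-rich type that folds into helices on drying. Potri.010G002600, a LEA D-29 (chromosome 10, 255693 to 257381, minus strand), was the most abundant of the 5, at 8.42, 0.946 and 2.14 FPKM in watered WT, 149, 125 and 55.7 in drought WT, 11.8, 20.5 and 5.10 in watered OE and 51.4, 45.3 and 58 in drought OE leaves. Its groups did not overlap between watering states in either genotype, and it rose by 4.73 ± 0.57 in WT (adjusted p = 4.17e-05) and 2.14 ± 0.57 in OE leaves (adjusted p = 0.00632). A second LEA D-29, Potri.007G024000 (chromosome 7, 1810111 to 1813315, plus strand), lay at 0.236, 0.145 and 0.309 FPKM in watered WT, 9.46, 7.78 and 4.64 in drought WT, 0.605, 0.661 and 0.458 in watered OE and 1.32, 1.55 and 2.01 in drought OE leaves. Again drought lay above watered in both genotypes, with the drought OE libraries all below the drought WT libraries. It rose by 2.71 ± 0.22 in WT (adjusted p = 2.19e-06) and by 0.73 ± 0.22 in OE leaves (adjusted p = 0.0123, and 0.0502 without OE drought replicate 6).

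The other LEA_4 genes were nearly silent in watered leaves. Potri.015G060600, described as the carrot embryonic protein DC-8 (chromosome 15, 8314353 to 8316273, plus strand), was listed at 0 in all 3 watered WT libraries and lay at 31.6, 19.8 and 24.6 FPKM in drought WT. In OE leaves it lay at 0, 0.0612 and 0 FPKM when watered and at 17.9, 14.3 and 18.8 under drought. Against a floor of 3 fragments per watered library, its drought level was at least 143-fold higher in WT. It rose by 4.70 ± 0.19 in WT (adjusted p = 2.31e-08) and by 4.13 ± 0.19 in OE leaves (adjusted p = 2.75e-08). Potri.001G173000 and Potri.001G173200, both described as LEA 2, lie 13678 bases apart on chromosome 1 (14675938 to 14676830 and 14690509 to 14691442, plus strand). Potri.001G173000 was listed at 0 in all 6 watered libraries and lay at 3.20, 13.5 and 1.96 FPKM in drought WT and 1.94, 4.38 and 1.87 in drought OE leaves, at least 17-fold and 7.41-fold higher than the floor. Its neighbour reached at most 0.482 FPKM in a watered library and lay at 11.3, 30.9 and 5.10 FPKM in drought WT and 8.17, 14.4 and 7.82 in drought OE leaves. Both were highest in WT drought replicate 5, and the drought groups of WT and OE overlapped for both. They rose by 2.50 ± 0.46 and 3.63 ± 0.46 in WT (adjusted p = 0.000803 and 6.11e-05) and by 1.84 ± 0.46 and 3.19 ± 0.46 in OE leaves (adjusted p = 0.0043 and 9.26e-05).

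The dehydrin-domain gene Potri.004G158500 (chromosome 4, 17996189 to 17997358, plus strand) rose in both genotypes. Dehydrins are hydrophilic LEA proteins with a lysine-rich repeat that binds membranes. It lay at 0.540, 0.111 and 0.353 FPKM in watered WT, 49.2, 20.4 and 11.9 in drought WT, 0.745, 1.05 and 1.51 in watered OE and 11.8, 14.8 and 11.9 in drought OE leaves. Drought lay above watered throughout, and the drought groups of the genotypes overlapped. The rise was 4.18 ± 0.38 in WT (adjusted p = 5.25e-06) and 2.73 ± 0.38 in OE leaves (adjusted p = 6.75e-05).

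The SMP-domain gene went another way. Potri.010G087000, a LEA D-34 (chromosome 10, 11136399 to 11140080, plus strand), lay at 14.9, 13.2 and 14 FPKM in watered WT, 11.5, 11.4 and 11 in drought WT, 17.6, 20.2 and 17.6 in watered OE and 8.16, 6.85 and 8.22 in drought OE leaves. Drought lay below watered in both genotypes, and drought OE leaves were the lowest of the 4 groups. It fell by 1.16 ± 0.13 in OE leaves (adjusted p = 1.4e-05). In WT the difference was -0.29 ± 0.13 (adjusted p = 0.0827), and it passed the threshold under median-of-ratios scaling (adjusted p = 0.00158).

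Both genes described as low-temperature-induced 65 kDa protein (LTI65), known in Arabidopsis as RD29B and widely used there as a marker of ABA response, rose in WT. Potri.015G143932 (chromosome 15, 14992918 to 14993583, plus strand) lay at 0.711, 0.584 and 0.775 FPKM in watered WT, 73.7, 89.7 and 41.4 in drought WT, 2.66, 2.60 and 2.45 in watered OE and 13.5, 13.6 and 15.6 in drought OE leaves. Potri.012G141300 (chromosome 12, 15487046 to 15489747, plus strand) was listed at 0 in all 6 watered libraries and lay at 6.04, 1.73 and 6.59 FPKM in drought WT and at 0.517, 0.270 and 0.601 in drought OE leaves. For each gene no drought OE library reached the lowest drought WT library. Potri.015G143932 rose by 5.29 ± 0.23 in WT (adjusted p = 3.74e-08) and by 2.09 ± 0.23 in OE leaves (adjusted p = 1.15e-05). Potri.012G141300 rose by 2.40 ± 0.31 in WT (adjusted p = 7.17e-05), where against the floor of 3 fragments per library it was at least 36.2-fold higher. In OE leaves its difference was 0.54 ± 0.31 (adjusted p = 0.15, and 0.00163 with a pseudocount of 0.1), at least 3.47-fold against the floor.

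The desiccation-related protein PCC13-62, named for a protein of the resurrection plant Craterostigma plantagineum, was the 1 tested gene that passed the threshold as higher in drought OE than in drought WT leaves, a call that most alternatives did not keep. Potri.001G380000 (chromosome 1, 39606008 to 39607402, minus strand) lay at 4.57, 2.22 and 6.65 FPKM in watered WT, 63.4, 72.5 and 60.9 in drought WT, 2.92, 20.7 and 0.692 in watered OE and 240, 402 and 199 in drought OE leaves. All 3 drought OE libraries lay above all 3 drought WT libraries, and watered OE replicate 2 stood well above the other watered libraries. It rose by 3.69 ± 0.70 in WT (adjusted p = 0.00097) and by 5.68 ± 0.70 in OE leaves (adjusted p = 2.54e-05).

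The abscisic stress-ripening (ASR) genes lie in a row on chromosome 5. ASR proteins are small, hydrophilic proteins first described from ripening tomato fruit. Potri.005G193600, described as ASR protein 3 (21084478 to 21085931, plus strand), lay at 154, 143 and 186 FPKM in watered WT, 118, 194 and 73.5 in drought WT, 277, 448 and 350 in watered OE and 12.1, 12.6 and 11.7 in drought OE leaves. Watered and drought WT overlapped, watered OE lay above every WT library, and drought OE lay below every other library. It fell by 4.75 ± 0.30 in OE leaves (adjusted p = 1.7e-07), and in WT the difference was -0.43 ± 0.30 (adjusted p = 0.238, and 0.0245 without WT drought replicate 5). The neighbouring ASR protein 1 gene Potri.005G193901 (21104840 to 21105972) stayed at or below 2.13 FPKM and rose by 1.08 ± 0.32 in WT (adjusted p = 0.0127) and 1.30 ± 0.32 in OE leaves (adjusted p = 0.00363). The WT rise passed no longer without WT drought replicate 4 (adjusted p = 0.0554) or 5 (adjusted p = 0.0537).

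RD22 proteins carry a BURP domain and are placed in the cell wall, and the Arabidopsis gene is known for its induction by dehydration and ABA. Of the 5 tested RD22 genes 4 fell in both genotypes. The 3 neighbours on scaffold 25 fell furthest. Potri.T012500 (171956 to 173273, minus strand) lay at 108, 142 and 99.2 FPKM in watered WT, 1.69, 1.10 and 2.27 in drought WT, 83.3, 57.0 and 80.5 in watered OE and 1.38, 0 and 2.04 in drought OE leaves. Potri.T012732 (196334 to 197642, plus strand) lay at 77.9, 55.0 and 48.4 FPKM in watered WT, 3.08, 2.49 and 8.32 in drought WT, 62.7, 83.2 and 46.6 in watered OE and 11.2, 0.922 and 14.8 in drought OE leaves. In both genes every drought library lay below every watered one. Potri.T012500 fell by 5.45 ± 0.35 in WT (adjusted p = 4e-07) and by 5.25 ± 0.35 in OE leaves (adjusted p = 2.68e-07), and Potri.T012732 fell by 3.56 ± 0.65 (adjusted p = 0.000747) and by 3.14 ± 0.65 (adjusted p = 0.00121). Potri.T012400 (166833 to 167225, plus strand) lay at 4.45 to 21.8 FPKM in watered libraries and was listed at 0 in all 6 drought libraries, at least 11.7-fold lower in WT and 16.7-fold lower in OE leaves against the floor. It fell by 3.0 ± 0.45 in WT (adjusted p = 0.000194) and by 3.26 ± 0.45 in OE leaves (adjusted p = 6.11e-05). The similar RD22 copies could share reads.

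The RD22 gene Potri.018G036700 (chromosome 18, 2996090 to 2998274, minus strand) was the most abundant of the family, at 164, 228 and 210 FPKM in watered WT, 333, 492 and 390 in drought WT, 154, 178 and 192 in watered OE and 131, 120 and 133 in drought OE leaves. Drought WT lay above all other groups and drought OE below them. It rose by 1.00 ± 0.20 in WT (adjusted p = 0.0013), while the OE difference was -0.44 ± 0.20 (adjusted p = 0.0741, and 0.0428 when libraries were scaled without their 100 top genes). Potri.006G243700 (chromosome 6, 25187847 to 25195272, plus strand) lay at 66.7, 92.3 and 69.9 FPKM in watered WT, 31.7, 35.5 and 32.3 in drought WT, 42.1, 23.4 and 113 in watered OE and 5.89, 6.31 and 4.65 in drought OE leaves. Drought lay below watered in each genotype, and drought OE was the lowest group. It fell by 2.91 ± 0.41 in OE (adjusted p = 7.09e-05) and by 1.17 ± 0.41 in WT leaves (adjusted p = 0.0292). The WT fall passed no longer when any of 5 libraries was left out: WT watered replicate 2 (adjusted p = 0.0973) or 3 (0.0532), or WT drought replicate 4 (0.0699), 5 (0.0532) or 6 (0.059).

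In both remaining tested genes the listed domain was not of a LEA type. Potri.005G122400 is described as a LEA D-29 but its listed domain is a zinc finger dimer of the ZF-HD type (chromosome 5, 9518260 to 9523438, plus strand), so its identity as a LEA gene rests on the description alone. It lay at 3.32, 2.11 and 2.84 FPKM in watered WT, 248, 186 and 166 in drought WT, 10.8, 9.99 and 6.07 in watered OE and 104, 99.3 and 101 in drought OE leaves. No 2 of its 4 groups overlapped. It rose by 5.73 ± 0.22 in WT (adjusted p = 2.11e-08) and by 3.40 ± 0.22 in OE leaves (adjusted p = 1.97e-07). Potri.010G176200 is described as the seed maturation protein PM41, which names no domain, and its listed domain is Daxx. This gene (chromosome 10, 17611873 to 17612305, plus strand) lay at 1.75, 1.35 and 1.19 FPKM in watered WT, 17.6, 16.6 and 4.22 in drought WT, 2.37, 2.59 and 1.89 in watered OE and 1.71, 1.99 and 0.775 in drought OE leaves. Only the drought WT libraries stood apart, all above the other 9. It rose by 2.31 ± 0.41 in WT (adjusted p = 0.000584), and its difference in OE leaves was -0.43 ± 0.41 (adjusted p = 0.378).

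**Figure D3:**
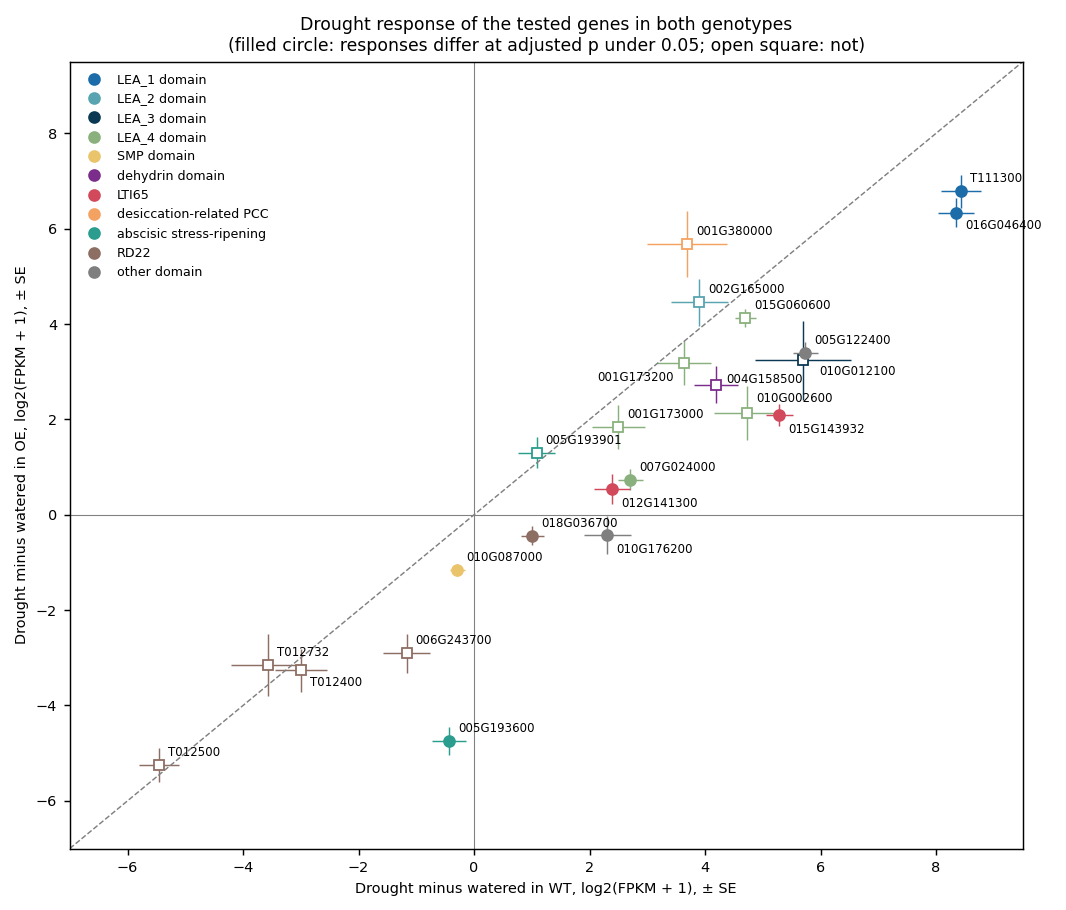
Drought response of the 23 tested genes in WT (horizontal) and OE leaves (vertical), as log2 differences ± SE, coloured by family, with the line of equal response dashed. Points below the line had a smaller value in OE than in WT leaves; filled circles mark the 10 genes whose responses differed at an adjusted p under 0.05.

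The genotypes were next compared at the same watering state. In watered leaves, 1 of the 23 genes was higher in OE than in WT and 0 were lower, where 0.0985% of all tested genes were higher and 0.0394% lower. The gene was Potri.005G122400, higher by 1.38 ± 0.22 (adjusted p = 0.033), and this call was lost in 11 of 20 alternatives, with adjusted p up to 0.251. With all 36 genes tested the counts were again 1 and 0 (0.0755% and 0.0448% of 35747 genes). Every OE library lay above every WT library in 9 of the 23 genes (12.4% of all tested genes) and below in 1 (5.14%). Potri.016G046400 (1.5 ± 0.31, adjusted p = 0.125), Potri.015G143932 (1.08 ± 0.23, adjusted p = 0.14) and Potri.005G193600 (1.13 ± 0.30, adjusted p = 0.243) were higher without passing the threshold. Without WT drought replicate 6, whose spread enters the pooled estimate, Potri.016G046400 (adjusted p = 0.035) and Potri.015G143932 (adjusted p = 0.0133) passed as well.

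In drought leaves, 10 of the 23 genes were lower in OE than in WT and 1 was higher, where 20.4% of all tested genes were lower and 9.23% higher. The OE libraries lay wholly below the WT libraries in 10 of the 23 (31.6% of all tested genes) and wholly above in 1 (13.2%). Median-of-ratios scaling moved the all-gene median of this contrast from -0.24 to -0.03 and the all-gene split from 2341 higher and 5176 lower to 3859 higher and 2574 lower (15.2% and 10.1%), and 8 of the 10 genes remained lower under it. With all 36 genes tested, 12 were lower and 1 higher (12.7% and 6.93% of 35747 genes). That 1 is not the PCC13-62 gene, which did not pass there (adjusted p = 0.0724), but the weakly expressed LEA 1 gene Potri.010G062800, which never exceeded 0.335 FPKM. Without WT drought replicate 6, 11 were lower, 9 of them among the 10, and 0 were higher. The genes gained were the dehydrin-domain gene Potri.004G158500 (adjusted p = 0.0122) and the seed maturation gene Potri.016G046400 (adjusted p = 0.0328).

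The genes lower in drought OE leaves came from several families. The largest difference was that of the ASR protein 3 gene Potri.005G193600, at -3.19 ± 0.30 (adjusted p = 8.25e-05). The RD22 genes Potri.006G243700 (-2.37 ± 0.41, adjusted p = 0.00232) and Potri.018G036700 (-1.64 ± 0.20, adjusted p = 0.00033) were lower, as was the PM41 gene Potri.010G176200 (-2.30 ± 0.41, adjusted p = 0.00264). Both LTI65 genes were lower, Potri.015G143932 by -2.12 ± 0.23 (adjusted p = 0.000191) and Potri.012G141300 by -1.85 ± 0.31 (adjusted p = 0.00207). The LEA D-29 gene Potri.007G024000 was lower (-1.62 ± 0.22, adjusted p = 0.0006), while the more abundant LEA D-29 gene Potri.010G002600 did not pass (-0.97 ± 0.57, adjusted p = 0.216). Potri.005G122400, the gene with the ZF-HD domain, was lower (-0.95 ± 0.22, adjusted p = 0.00857). The last members past the threshold were Potri.015G060600, the DC-8 gene (-0.54 ± 0.19, adjusted p = 0.0476, lost in 17 of 20 alternatives), and Potri.010G087000, the LEA D-34 (-0.50 ± 0.13, adjusted p = 0.0166, and 0.185 under median-of-ratios scaling). Mesophyll markers were lower in drought OE leaves as well, in 23 of 26 tested, and their part in these differences was not tested.

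The most abundant LEA genes did not pass in that comparison. The differences of Potri.010G012100 (0.04, 95% interval -1.77 to 1.84) and Potri.002G165000 (0.59, -0.48 to 1.67) covered 0, and so did those of the 18 kDa seed maturation genes Potri.016G046400 (-0.51, -1.18 to 0.15) and Potri.T111300 (-0.52, -1.28 to 0.23). Potri.016G046400 passed as lower without WT drought replicate 6 (adjusted p = 0.0328). The gene higher in drought OE leaves was the PCC13-62 gene Potri.001G380000, by 2.02 ± 0.70 (adjusted p = 0.0481), a call lost in 13 of 20 alternatives with adjusted p up to 0.159.

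**Figure D4:**
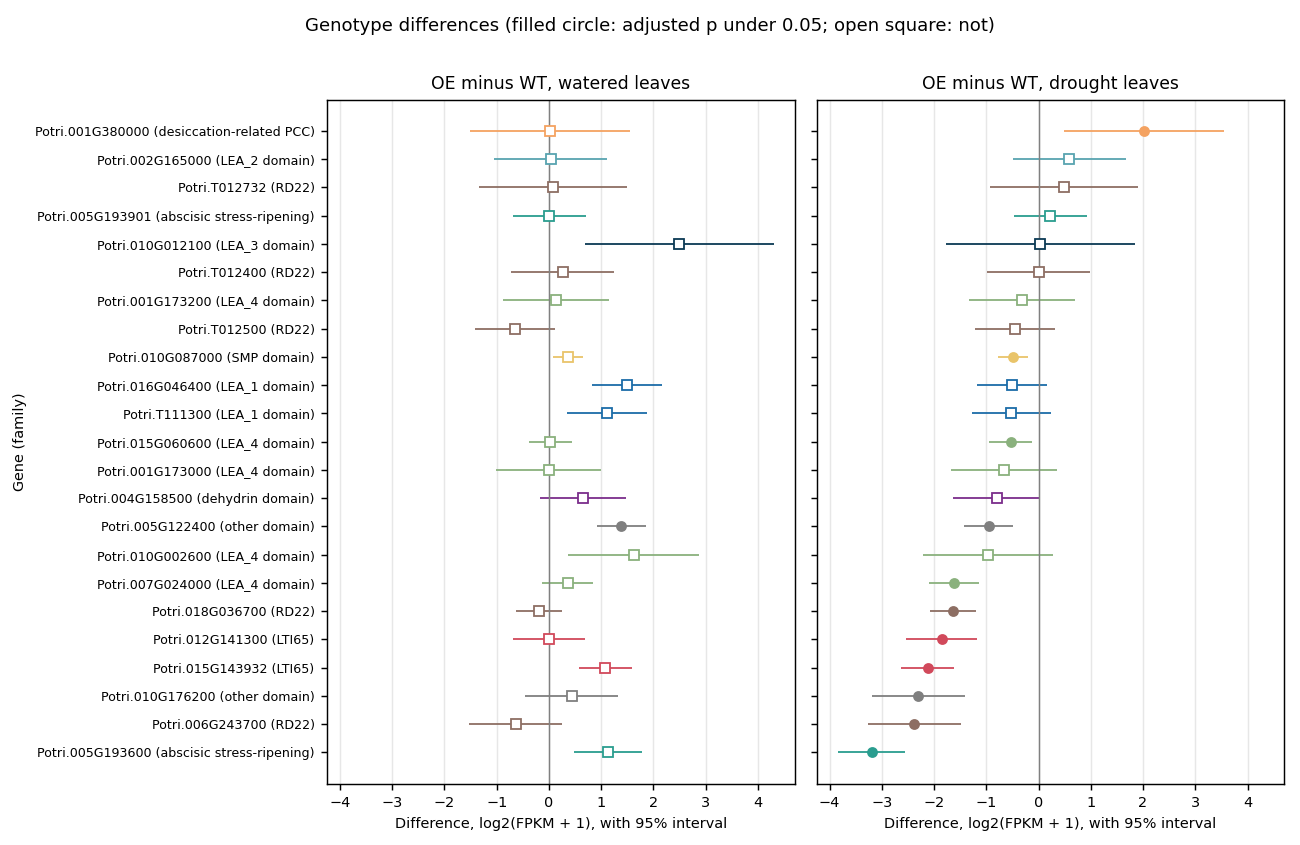
OE minus WT in watered (left) and drought leaves (right) for the 23 tested genes, as log2 differences with 95% intervals, ordered by the drought value. In watered leaves 1 gene passed the threshold (filled), and in drought leaves 10 passed below 0 and 1 above.

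The interaction compares the drought responses of the genotypes directly. Its value is signed, so a lower response in OE can be a smaller rise or a larger fall. The response was lower in OE than in WT in 10 of the 23 genes and higher in 0, where 10.5% of all tested genes had a lower and 4.58% a higher response. Under median-of-ratios scaling, which moved the all-gene median from -0.28 to 0.04 and the all-gene split from 1163 higher and 2659 lower to 2026 and 1055 (7.98% and 4.16%), 8 of the 10 remained. Relative to the all-gene median of -0.28, the 10 differences ranged from -4.05 to -0.59. Without WT drought replicate 6, 12 had a lower response, the 10 among them, and without OE watered replicate 2, 10 had a lower response, 9 of them among the 10, and 1 a higher. With all 36 genes tested, 9 had a lower response and 1, Potri.010G062800 again, a higher one (5.47% and 3.10% of 35747 genes).

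The ASR protein 3 gene Potri.005G193600 had the largest difference in response, -4.32 ± 0.42 (adjusted p = 0.000431), followed by the LTI65 gene Potri.015G143932 with -3.20 ± 0.33 (adjusted p = 0.000555). For PM41 (Potri.010G176200) it was -2.73 ± 0.57 (adjusted p = 0.0131, and 0.0517 with voom), for Potri.005G122400 -2.34 ± 0.31 (adjusted p = 0.00183) and for the LEA D-29 gene Potri.007G024000 -1.98 ± 0.31 (adjusted p = 0.00395). The seed maturation gene Potri.016G046400 had a response smaller by 2.02 ± 0.43 (adjusted p = 0.0145), while its drought levels overlapped between genotypes and its watered level was higher in OE leaves. Its partner Potri.T111300 (-1.64 ± 0.49, adjusted p = 0.045) lost the call in 13 alternatives, with adjusted p up to 0.121. In Potri.018G036700, an RD22 gene, the value was -1.44 ± 0.28 (adjusted p = 0.00994): WT rose and OE did not pass.

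The remaining responses that differed were those of the second LTI65 gene Potri.012G141300 (-1.85 ± 0.44, adjusted p = 0.0211) and of the LEA D-34 gene Potri.010G087000 (-0.87 ± 0.19, adjusted p = 0.0143). The first was lost with voom (adjusted p = 0.19) and without WT watered replicate 2 (adjusted p = 0.0521). Both its watered groups were listed at 0, so its value equals the drought difference between genotypes and depends on the added 1. A difference in fold response cannot be read from it. The second was lost under median-of-ratios scaling (-0.49, adjusted p = 0.0667) and with the replicate block (adjusted p = 0.0512). Potri.010G002600 (-2.59 ± 0.81, adjusted p = 0.0507) and the RD22 gene Potri.006G243700 (-1.74 ± 0.58, adjusted p = 0.0611) lay just outside the threshold. The responses of the 3 scaffold 25 RD22 genes were not shown to differ, with intervals from -1.65 to 1.13 for Potri.T012400, -0.88 to 1.28 for Potri.T012500 and -1.59 to 2.42 for Potri.T012732. The PCC13-62 gene Potri.001G380000 had a larger response in OE leaves that did not pass (1.99 ± 0.99, adjusted p = 0.177). Without OE watered replicate 2, where it was at 20.7 FPKM, its adjusted p was 0.0134.

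Transcription factors known to bind promoters of LEA and seed maturation genes were taken as a list of 20 genes by description. Of these 13 were tested. The description had to name an ABI5-type or related bZIP factor, or another seed factor. The other names sought were the B3 factors ABI3, FUS3 and LEC2, LEAFY COTYLEDON and nuclear factor Y subunit B-9. In WT 10 of the 13 rose and 1 fell under drought (median 1.30, against 0.25 for all tested genes, of which 33.9% rose and 21.7% fell), and in OE leaves 5 rose and 1 fell (median 0.42, against -0.13, with 27.8% and 35.0%). Potri.014G028200, ABI5-like protein 5, went from 15 ± 2.12 to 97.1 ± 31.6 FPKM in WT and from 19.7 ± 2.65 to 108 ± 5.12 in OE leaves, rising by 2.57 ± 0.23 (adjusted p = 4.25e-06) and 2.41 ± 0.23 (adjusted p = 3.2e-06). A gene of the same description, Potri.002G125400, rose by 1.94 ± 0.15 and 1.47 ± 0.15. The difference between genotypes did not pass for either, at an interaction adjusted p of 0.759 and 0.139. The ABI5-like protein 6 gene Potri.009G101232 rose by 1.86 ± 0.30 in WT and 0.76 ± 0.30 in OE leaves, and the G-box-binding factor 4 gene Potri.005G192900 by 1.30 ± 0.20 and 1.12 ± 0.20. In the interaction, 2 of the 13 had a lower response in OE leaves and 0 a higher one, beside 10.5% and 4.58% of all tested genes.

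Other proteins known for water loss or cold formed a list of 54 genes, with 46 tested. The descriptions sought for it also included universal stress proteins, so its counts are not of dehydration and cold proteins alone. In WT 26 rose and 2 fell (median 0.87), and in OE leaves 19 rose and 14 fell (median 0.09), against the same all-gene shares. The WT counts were 20 and 3 under median-of-ratios scaling. In drought leaves 12 were lower and 2 higher in OE, where 20.4% and 9.23% of all tested genes were, and 6 and 4 under that scaling, where 10.1% and 15.2% were; the lower counts are near those shares. The low temperature-induced proteins lt101.2 (Potri.008G044300) and lt101.1 (Potri.010G217200), small membrane proteins, rose by 5.97 ± 0.37 and 5.58 ± 0.33 in WT and by 5.57 ± 0.37 and 6.53 ± 0.33 in OE leaves, where lt101.1 was listed at 0 when watered and was at least 234-fold higher under drought. The ERD7 gene Potri.009G133500, early responsive to dehydration, rose by 5.14 ± 0.46 in WT and by 3.13 ± 0.46 in OE leaves. Its difference in response did not pass (-2.02 ± 0.65, adjusted p = 0.0548). In the interaction, 13 of the 46 had a lower response in OE leaves, beside 10.5% of all tested genes. A higher response was called in 1, beside 4.58% of all tested genes. That 1 was the LTI6A gene Potri.005G002200, of the same kind as lt101.1. Its response was larger in OE leaves by 2.52 ± 0.50 (adjusted p = 0.0109). It went from 152 ± 48.3 to 1886 ± 517 FPKM there against 178 ± 29.2 to 414 ± 190 in WT. Genes whose descriptions name oil body or storage proteins of seeds, or 1-Cys peroxiredoxin, formed a list of 46, with 18 tested. Of these 7 rose and 3 fell in WT (median 0.68), and 5 rose and 5 fell in OE leaves (median 0.20), and the counts that rose are near the 33.9% and 27.8% of all tested genes. The seed globulin homologue Potri.002G054900 (basic 7S globulin) went from 1.46 ± 0.616 to 106 ± 59.6 FPKM in WT and from 1.16 ± 1.65 to 570 ± 226 in OE leaves. Its response was larger in OE leaves by 2.99 ± 0.79 (adjusted p = 0.0298). Those of Peroxygenase 1 (Potri.010G066600), an oil body enzyme, and of the protease inhibitor and seed storage protein Potri.008G061800 were smaller, by -1.56 ± 0.44 (adjusted p = 0.0382) and -2.98 ± 0.87 (adjusted p = 0.0418), while Potri.008G155200 of the same description had a larger one (1.65 ± 0.38, adjusted p = 0.0192). The 1-Cys peroxiredoxin gene Potri.008G099900, known from dormant seeds, fell by 1.78 ± 0.70 in WT (adjusted p = 0.048) and by 3.73 ± 0.70 in OE leaves (adjusted p = 0.000641).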

How the data were processed

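Leaf mRNA of 12 libraries (paired reads, a NEBNext Ultra kit, per the labels' design text) was summarised by the authors as FPKM per gene, and the deposited annotated table of FPKM values, gene positions, descriptions and domains was used. HISAT2 2.1.0 and Bowtie2 2.2.3 are listed in the submitters' processing notes, with no role. Genome build, counting tool and strand setting were not given in the sources used here. If the libraries did not keep the strand, which was not established here, a gene and its antisense partner cannot be told apart. Coordinates are those of the authors' table. A second deposited table was not used.

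Each library total was the most frequent total implied by 1 fragment among genes of low FPKM, with 559 to 646 genes giving it. With these totals, FPKM values were whole multiples of the worth of 1 fragment, within a tolerance of 0.02, for 35744 of 35747 genes. Floors rest on 3 fragments per library and cover counting error only. With genes listed at 0 in a group set to their bound, the drought medians printed for the 3 lists (transcription factors, other dehydration and cold proteins, other seed proteins) did not move at 2 decimals. No pair of libraries held identical values. The 25373 genes that reached 1 FPKM in 3 or more libraries were fitted as log2(FPKM + 1) to 4 group means with limma 3.58.1 in R 4.3.3 (variance trend, 8 residual degrees of freedom), with Benjamini-Hochberg adjustment across all of these genes and a threshold of 0.05. Voom on the recovered fragments called 8492 genes higher and 5477 lower for drought in WT, against 8614 and 5501. The fit was also run on simulated normal values with a small set of genes changed in drought WT only. Far more genes were called in the data, so that run cannot speak to false calls under so broad a shift. 

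The members and lists were chosen with earlier results of these data known. Genes named in the text are, for each family, the most abundant member and up to 4 past the threshold with the largest change per drought contrast; every member past the threshold in watered leaves; up to 8 in drought leaves and in the interaction; up to 6 falls per drought contrast; and from each list up to 3 per drought contrast. Members beyond this rule are given so that each is accounted for, and the cases near the threshold were chosen after their values were seen. Alternatives were a pseudocount of 0.1, no filter, a filter on the mean, 2 other scalings, voom on the recovered fragments, a fit of the compared groups alone, leaving out each library, the replicate block, and a log2 change of at least 1.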

Additional observations from a re-analysis of the deposited data

Results flagged for a closer look

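The drought response of 10 genes differed between the genotypes in the interaction test of limma (adjusted p under 0.05 over all tested genes). Given as OE minus WT on the log2 scale, the difference was -4.32 for the abscisic stress-ripening protein 3 gene Potri.005G193600, -3.20 for the LTI65 gene Potri.015G143932 and -2.73 for the PM41 gene Potri.010G176200. It was -2.34 for Potri.005G122400, -2.02 for the 18 kDa seed maturation gene Potri.016G046400 and -1.98 for the LEA D-29 gene Potri.007G024000. It was -1.85 for the LTI65 gene Potri.012G141300, -1.64 for the 18 kDa seed maturation gene Potri.T111300, -1.44 for the RD22 gene Potri.018G036700 and -0.869 for the LEA D-34 gene Potri.010G087000. In the first of these, WT leaves showed no call under drought and OE leaves fell; in Potri.018G036700 WT rose and OE did not pass. Potri.012G141300 was listed at 0 in every watered library, so its value equals its drought difference between genotypes and depends on the added 1. Mesophyll markers were lowest in the same drought OE libraries, and their part in these differences was not tested.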

How the results depend on the processing

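The log2 change of at least 1 was applied to the counts of genes only. Across the other alternatives, 52 of the 63 calls on single genes were kept in every one and 11 were lost in at least 1. A further 15 results passed in at least 1, and 0 called results changed sign. The count of 1 gene higher in OE drought leaves became 0 with a pseudocount of 0.1 and with the replicate block, and 0 to 1 when a library was left out. The count of 1 gene higher in OE watered leaves became 3 with a pseudocount of 0.1, 0 with voom, 0 in a fit of the compared groups alone and 0 with the replicate block, and ranged from 0 to 3 when a library was left out. The count of 0 genes lower in OE watered leaves ranged from 0 to 1 without a library. The count of 0 genes with a higher response in OE leaves (OE minus WT above 0) became 1 with no filter, and ranged from 0 to 1 without a library. With the replicate block, 8 genes were lower in OE drought leaves and 8 had a lower response (OE minus WT below 0), against 10 and 10. Libraries with the same number correlated between -0.497 and 0.218 in their deviations from the group mean. With 3 libraries per group this cannot settle whether the numbers mark shared blocks. Watered and drought libraries share no number. The causes were not tested. At the depth of these libraries 1 FPKM of a short gene rests on few fragments, which limits the weakest genes.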

Other observations

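Genes with a dehydrin or LEA domain whose descriptions did not match were not among the 36. Of 6 such dehydrin-domain genes 4 were tested, and 2 rose under drought in each genotype, where 33.9% of all tested genes rose in WT and 27.8% in OE leaves. Potri.005G248100, described as unknown, was more abundant than any of the 36, at 589 ± 57.4 FPKM in watered WT, 1453 ± 767 in drought WT, 854 ± 306 in watered OE and 2241 ± 49.4 in drought OE leaves (n = 3). It rose in OE leaves (1.45 ± 0.45, adjusted p = 0.0137), and in WT the difference was 1.11 ± 0.45 (adjusted p = 0.0514), with WT drought replicate 6 at 569 FPKM and the other two at 1848 and 1943. Potri.002G013200 went from 1.91 ± 0.343 to 12.1 ± 6.90 FPKM in WT and from 1.65 ± 0.286 to 51.0 ± 6.02 in OE leaves, a response larger in OE by 2.28 ± 0.47 (adjusted p = 0.0126). Potri.009G120100, described as embryogenic cell protein 40, had a response smaller in OE by 2.02 ± 0.55 (adjusted p = 0.0322).

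Of 50 LEA_2-domain genes outside the 36, 41 were tested. In WT 13 rose and 16 fell, where 33.9% of all tested genes rose and 21.7% fell. In OE leaves 13 rose and 21 fell, where 27.8% rose and 35.0% fell. The counts that rose are near those shares. Of 10 genes with other LEA domains outside the 36, 5 were tested. Of these, 4 rose in WT and 3 in OE leaves, and 0 fell, beside the same all-gene shares. The LEA_3 genes described as SENESCENCE-ASSOCIATED GENE 21 had larger responses in OE leaves. Potri.002G203500 went from 26.7 ± 17.3 to 87.0 ± 35.9 FPKM in WT and from 24.8 ± 7.14 to 537 ± 242 in OE leaves, a difference of 2.57 ± 0.63 (adjusted p = 0.0227), and Potri.014G127700 differed by 1.39 ± 0.42 (adjusted p = 0.0443). The seed biotin-containing protein SBP65 gene Potri.013G118600 (-1.34 ± 0.39, adjusted p = 0.0424) and the LEA_6 gene Potri.005G145200 (-1.27 ± 0.28, adjusted p = 0.0162) had smaller ones. These genes were chosen by their domain after the descriptions had been read.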
